A study of Mus musculus with 24 samples.

Results

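The liver makes most of the proteins of blood clotting, clot lysis and complement, and 33 of their genes were followed across 4 groups of mouse livers. The 33 were taken by gene name from the 49315 genes of the deposited tables. They comprise 16 coagulation genes, 2 fibrinolysis genes and 15 complement genes, placed in 10 roles. Every name matched 1 row, and all 33 passed the filter on low counts, the lowest value being 381 counts (C6, a wild-type control library).

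The libraries were made from total RNA of individual livers, 6 per group. In the tumour-bearing groups, labelled CCA, AKT and YAP1 had been put into the genome with a transposon, which gives cholangiocarcinoma, a cancer of bile duct type. The control groups, labelled Ctrl, had an empty transduction and bore no tumour. Both conditions exist in wild-type and Mdr2-/- mice, which gives CCA.Wild-type, CCA.Mdr2-/-, Ctrl.Wild-type and Ctrl.Mdr2-/-. Mdr2-/- mice lack Abcb4, the transporter that moves phosphatidylcholine into bile, and develop bile duct injury and scarring. Strain, sex, age, time after transduction and the cells that received the oncogenes are not given in the labels. The sampled tumour-bearing tissue can hold both tumour and the liver around it. Nothing in the labels says how animals were assigned, so the p-values stand only for the spread among the livers sampled, and replicate numbers follow the order of deposit.

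Clotting runs as a cascade in which one protease cuts and activates the next, until thrombin (from F2) cuts fibrinogen into fibrin. Complement is a second cascade, in which lectins or antibodies, or C3 itself, lead to convertases that cut C3 and C5 and to a pore made of C5b, C6, C7, C8 and C9. Hepatocytes secrete most of these proteins at high levels. Some rise in the acute phase response to inflammation, among them fibrinogen, C3 and factor B. Liver transcription factors such as HNF4A and the C/EBP family are known regulators of many of these promoters.

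The 3 fibrinogen genes lie close together on chromosome 3 and C8a and C8b on chromosome 4, so the DNA before their starts is shown, together with C6, the member that differed most between groups. The sequences are the 250 bases before the gene start, on the gene's own strand, from the RefSeq promoter table (GRCm38.p6; the counts were made on mm39, so these positions do not apply to them). Capitals mark matches to 4 motifs, on either strand of these letters. TTGCNNAA is bound by C/EBP factors. CAAAGT is part of the HNF4 motif, CTGGGAA is the IL-6 type II element and TATAAA the TATA box. Fga is at chr3:83025903-83026152 on the plus strand, Fgb at chr3:83049864-83050113 on the minus strand and Fgg at chr3:83007474-83007723 on the plus strand. C8a is at chr4:104876399-104876648 on the minus strand, C8b at chr4:104766067-104766316 on the plus strand and C6 at chr15:4726960-4727209 on the plus strand.
Fga: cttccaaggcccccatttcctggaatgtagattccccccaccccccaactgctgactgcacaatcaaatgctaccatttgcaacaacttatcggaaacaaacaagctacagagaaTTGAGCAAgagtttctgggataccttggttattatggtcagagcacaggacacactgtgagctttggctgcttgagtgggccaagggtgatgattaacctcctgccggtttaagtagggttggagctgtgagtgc
Fgb: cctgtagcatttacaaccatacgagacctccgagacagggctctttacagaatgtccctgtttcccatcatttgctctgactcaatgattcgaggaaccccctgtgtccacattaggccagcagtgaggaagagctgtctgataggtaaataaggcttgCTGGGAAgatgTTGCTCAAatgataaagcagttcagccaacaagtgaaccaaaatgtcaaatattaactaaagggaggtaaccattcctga
Fgg: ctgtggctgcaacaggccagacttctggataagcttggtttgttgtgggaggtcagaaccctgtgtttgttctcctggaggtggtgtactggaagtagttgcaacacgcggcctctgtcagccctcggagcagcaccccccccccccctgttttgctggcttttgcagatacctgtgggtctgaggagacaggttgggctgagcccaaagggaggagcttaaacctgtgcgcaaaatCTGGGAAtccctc
C8a: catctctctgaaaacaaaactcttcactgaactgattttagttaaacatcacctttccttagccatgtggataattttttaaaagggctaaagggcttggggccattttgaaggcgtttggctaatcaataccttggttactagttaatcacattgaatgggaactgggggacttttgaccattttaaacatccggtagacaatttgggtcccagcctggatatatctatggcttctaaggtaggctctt
C8b: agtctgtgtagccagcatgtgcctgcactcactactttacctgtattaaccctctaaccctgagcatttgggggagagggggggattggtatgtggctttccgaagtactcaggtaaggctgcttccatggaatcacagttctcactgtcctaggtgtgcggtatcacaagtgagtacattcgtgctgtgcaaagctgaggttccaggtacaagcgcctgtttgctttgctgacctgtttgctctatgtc
C6: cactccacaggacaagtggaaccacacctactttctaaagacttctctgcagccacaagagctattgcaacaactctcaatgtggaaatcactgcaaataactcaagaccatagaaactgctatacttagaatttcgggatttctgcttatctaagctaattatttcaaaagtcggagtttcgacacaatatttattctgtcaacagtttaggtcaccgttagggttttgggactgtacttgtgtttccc
Fga held a C/EBP match 135 bases before the start. Fgb held one 80 bases before the start, and an IL-6 type II match 91 bases before it. In Fgg the only match was an IL-6 type II element, 13 bases before the start. None of the 4 motifs was in the C8a, C8b and C6 windows. Of the 33 members, 25 had an entry in the table. The C/EBP motif was in 7 of these 25 (28%) and in 9.56% of all 32851 windows of that length. The HNF4 motif was in 3 (12%) against 12.6% of all windows, the IL-6 type II motif in 4 (16%) against 9.10%, and the TATA box in 2 (8%) against 12.4%. These are matches of letters and were not tested as binding sites.

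Total counts were 20976459 to 30288385 per library. Abcb4, the gene that encodes Mdr2, averaged 285 CPM (counts scaled to library size with TMM factors) in wild-type controls and 233 in wild-type tumour livers. It averaged 32.6 and 31.0 in the Mdr2-/- groups, lower in the direction of the genotype labels but not at 0. From which part of the gene the remaining reads came was not tested. Libraries CCA.Wild-type 6 and CCA.Mdr2-/- 1 stood apart from their groups in earlier results, and without them the members called lower and higher were 24 and 0 (tumour, Mdr2-/-), 23 and 1 (tumour, wild-type), 2 and 0 (difference) and 11 and 6 (genotype, controls). Shares of all genes called without them are not reported here, so these counts alone do not describe the members. Hepatocyte markers were present throughout. Their summed level (10 of the 11 listed had rows) was 123084 to 152574 CPM in wild-type controls, 58420 to 104875 in wild-type tumour livers, 86856 to 107769 in Mdr2-/- controls and 35243 to 71258 in tumour livers of Mdr2-/- mice. Since whole tissue was sequenced, fewer hepatocytes and less RNA per hepatocyte cannot be told apart in any value below.

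Levels were compared between members in TPM, the authors' unit that accounts for gene length. In wild-type controls C3, the centre of the complement cascade, was the highest (mean 4345 TPM, 3176 to 6441), with 19.8% of the members' summed TPM. The 3 fibrinogen chains followed, Fgg at 3466 TPM, Fga at 2365 and Fgb at 1859. Plg, which encodes plasminogen, had rank 5 at 1488 TPM. C3, Fgg, Fga and Fgb kept ranks 1 to 4 in all 4 groups, although the ranges of Fgg, Fga and Fgb overlapped. At the other end of the order in wild-type controls were Hc (complement C5, 29.1 TPM), Pros1 (protein S, 27.4), C2 (19.5) and C6 (10.5). C6 was below every other member there, and its highest library (12.2 TPM) was below the lowest of C2 (15.9). It moved from rank 33 in wild-type controls to 30 in wild-type tumour livers, 25 in Mdr2-/- controls and 24 in tumour livers of Mdr2-/- mice. C9 moved from rank 15 to 8, 9 and 5 in the same order. Together the 33 members made up 2.19% ± 0.47 (SD, n = 6) of all TPM in wild-type controls, 2.64% ± 0.40 in Mdr2-/- controls, 1.65% ± 0.41 in wild-type tumour livers and 1.75% ± 0.20 in Mdr2-/- tumour livers. In CPM their mean sums were 45502 in wild-type controls, 42141 in Mdr2-/- controls, 27357 in wild-type tumour livers and 24890 in Mdr2-/- tumour livers. The order of the control groups thus depended on the unit.

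**Figure D1:**
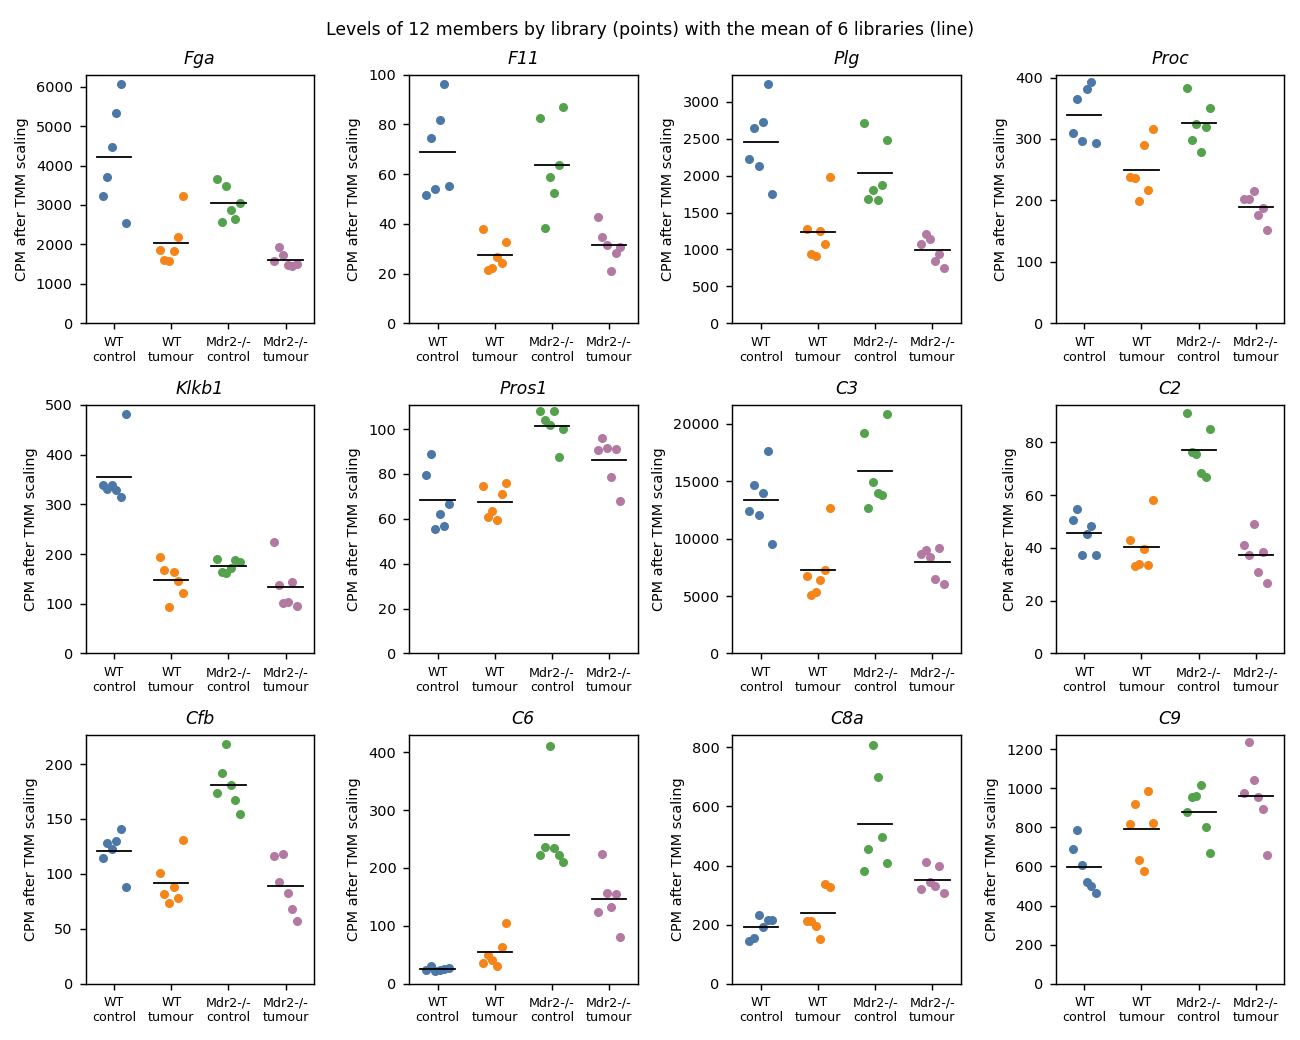
Levels of 12 members in each of 24 libraries (CPM after TMM scaling, y axis from 0, points), with the mean of each group of 6 as a line. Fga, F11, Plg, Proc and C3 are lower in both tumour-bearing groups, while C6, C8a and C2 are highest in the Mdr2-/- controls.

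Most members were lower in tumour-bearing livers of either genotype. In Mdr2-/- mice 23 of 33 members fell and 0 rose (edgeR quasi-likelihood test, adjusted p under 0.05), against 17.0% of the 17216 genes tested that were lower and 17.9% that were higher. At an unadjusted p under 0.05, 24 were lower and 0 higher, and DESeq2 also called 23 lower and 0 higher. With the share of nuclear non-coding RNA as a covariate, a measure that did not overlap between these groups and is described further on, 5 of the 23 were called (F7, F10, Serpinc1, C2 and Cfb). Shares of all genes at the unadjusted p, by DESeq2 or with this covariate are not reported here. In wild-type mice 20 members fell and 1 rose, against 11.5% lower and 16.9% higher among all genes. The members' median log2 fold change was -0.66 in Mdr2-/- and -0.52 in wild-type mice, where all genes had medians of 0.04 and 0.03. Of the 23 and the 20, 15 fell in both genotypes. The tumour effect differed between genotypes for 5 members: C6, C2, C8a and F12 were more negative in Mdr2-/- mice (4 of 33, against 13.4% of all genes lower in this test) and Klkb1 more negative in wild-type mice (1 of 33, against 11.9% higher).

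**Figure D2:**
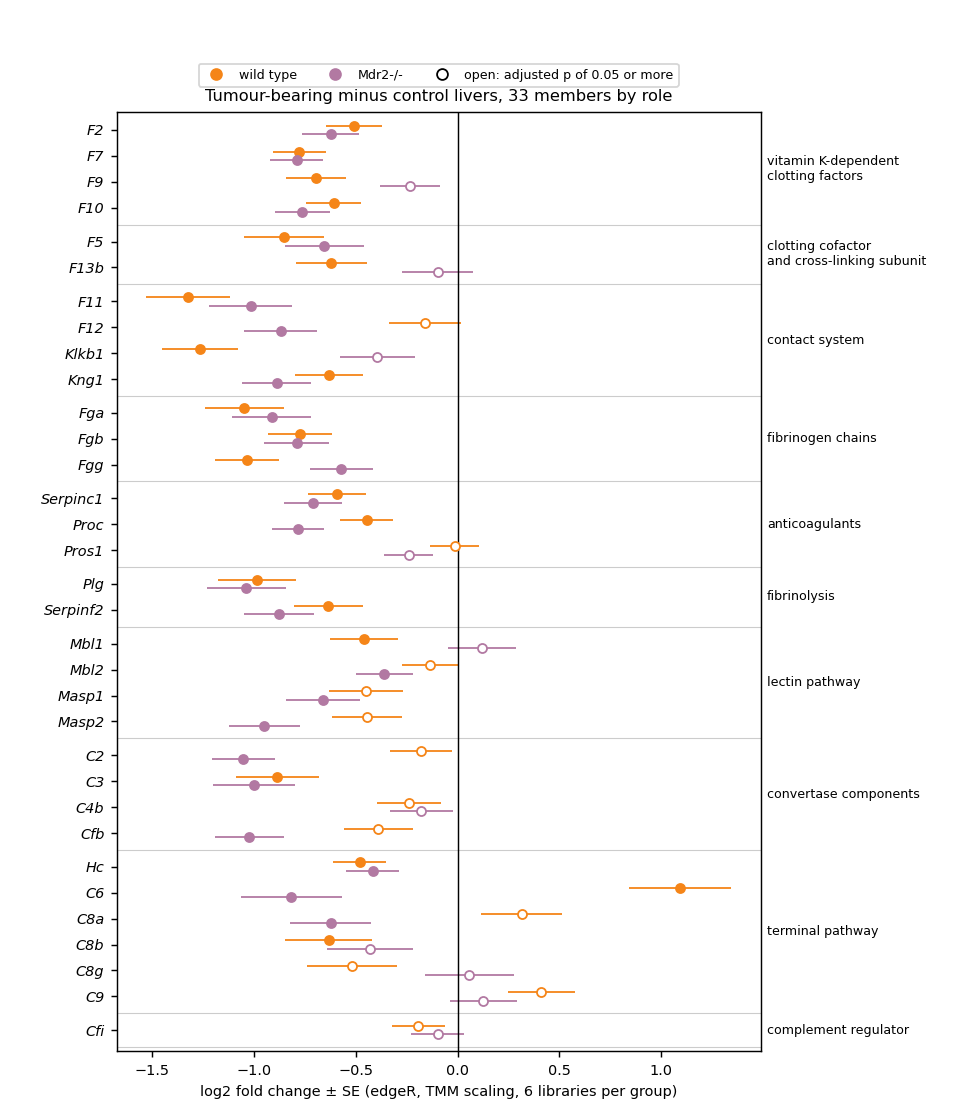
Tumour-bearing minus control livers for the 33 members, by role: log2 fold change (x axis) with its standard error, in wild-type (orange) and Mdr2-/- (purple) mice, with open points where the adjusted p was 0.05 or more. Nearly all points lie left of 0, and C6 is the member called in opposite directions.

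Among controls members were called in both directions. Without tumour, 6 members were higher and 8 lower in Mdr2-/- than in wild-type livers, against 26.2% higher and 24.3% lower among all genes. The members' shares, 18.2% and 24.2%, were no larger than these. Of the 6 members that were higher, 5 are complement genes (C6, C8a, C2, Cfb and C9) and the other is Pros1. Of the 8 that were lower, 5 are clotting genes (Klkb1, F13b, Fgg, F9 and Fga) and the others are C8g, Mbl1 and Hc. By part, 33.3% of the complement genes were higher and 20% lower, and of the coagulation genes 6.25% and 31.25%. The larger share of each part was not far from that of all genes. In sum, the 15 complement genes held 0.779% ± 0.13 (SD, n = 6) of all TPM in wild-type and 1.17% ± 0.21 in Mdr2-/- controls, and the 16 coagulation genes 1.21% ± 0.29 and 1.22% ± 0.14. In CPM the mean sums were 18393 and 21270 for complement, and 23897 and 18083 for coagulation, in the same order. C3 alone went from a mean of 4345 to 7125 TPM, and edgeR did not call it (0.25 ± 0.20, adjusted p = 0.309). The counts of members called depended on the scaling: 9 higher and 5 lower by total library size, 6 and 13 by upper-quartile factors, and 14 and 3 by limma on log2(TPM + 1). By total library size the median of all genes moved too, as given below. Shares of all genes called under these scalings are not reported here, so the counts alone do not describe the members. The 6 that were higher and Klkb1, F13b and C8g kept their call in every alternative run. Whether the control groups differed in sex or age is not given in the labels and was not tested. Between tumour-bearing livers of the 2 genotypes 2 members were called by edgeR: C6 was higher in Mdr2-/- (1 of 33, against 7.13% of all genes) and Proc lower (1 of 33, against 4.0%). This count was 1 to 6 with 1 library left out, the most without CCA.Mdr2-/- library 1, and 1 to 10 in the other settings, the most with the title covariate, and C6 was called in each.

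**Figure D3:**
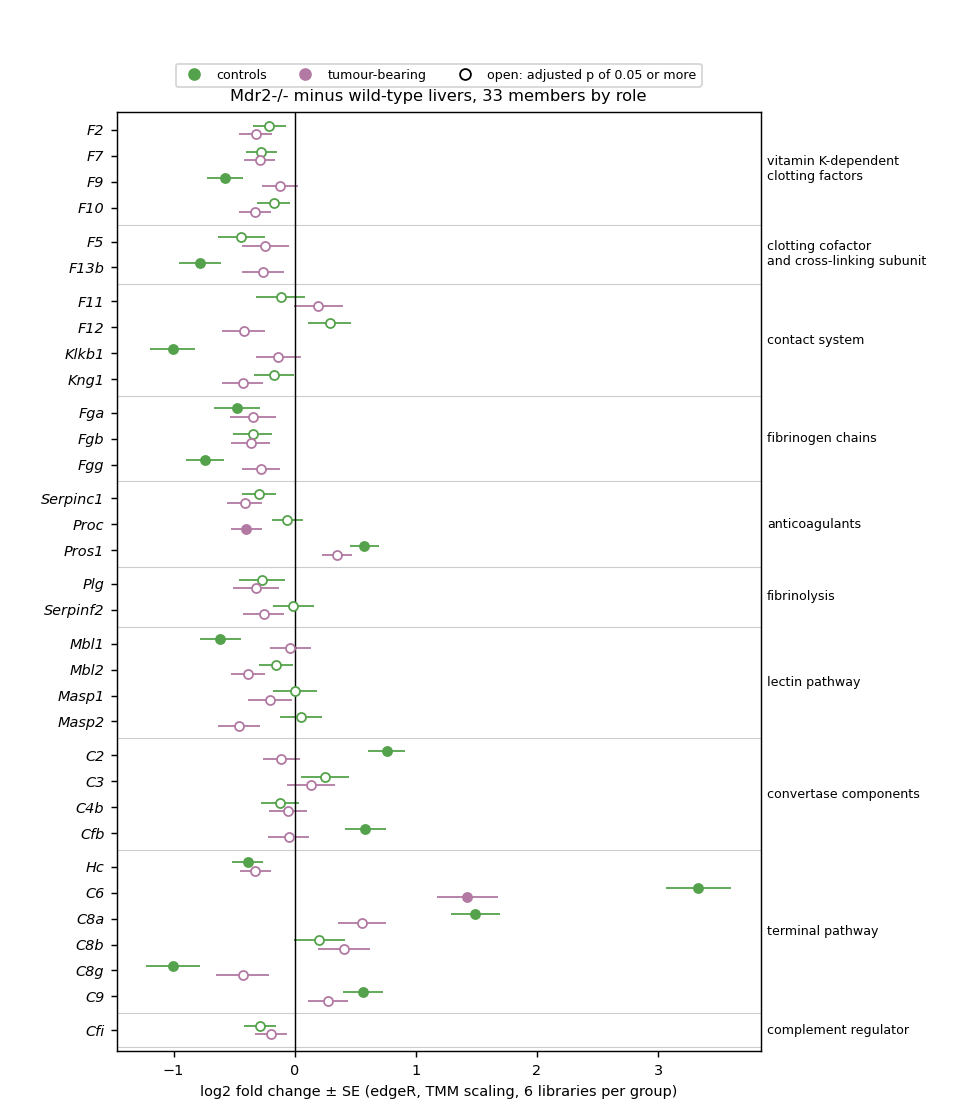
Mdr2-/- minus wild-type livers for the 33 members, by role: log2 fold change (x axis) with its standard error, among controls (green) and among tumour-bearing livers (purple), with open points where the adjusted p was 0.05 or more. C6 stands at 3.33 among controls, and the C8 chains C8a and C8g lie on opposite sides of 0.

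The position of 0 in these values rests on the scaling. TMM factors ran from 0.77 to 0.86 among wild-type controls and from 1.03 to 1.39 among Mdr2-/- tumour livers. Scaled by total library size, the median of all genes moved to 0.28 for the tumour effect in Mdr2-/- mice, 0.33 for that in wild-type mice and 0.33 for the genotype effect in controls. Relative to that median the members' median was -0.71, -0.56 and -0.20, against -0.70, -0.55 and -0.20 with TMM. In wild-type mice total library size called 12 members lower and 4 higher in tumours, and limma on TPM 11 and 2. The shares of all genes called under these scalings are not reported here. The falls no longer called by total library size were those of F2, F13b, Kng1, Proc, Serpinf2, Mbl1, C8b and Hc, and by limma those of F2, F10, Kng1, Fgb, Proc, Serpinf2, Mbl1, C8b and Hc. In Mdr2-/- mice total library size left out Fgg, Mbl2, C6, C8a and Hc.

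The fibrinogen chains, which assemble in pairs into the clot-forming protein, fell in both genotypes. Fga ranged from 2545 to 6077 CPM in wild-type controls (median 4089) and from 1571 to 3226 in wild-type tumour livers (median 1843). In Mdr2-/- mice it ranged from 2570 to 3648 in controls (median 2950) and from 1460.8 to 1924 in tumour livers (median 1543). The Mdr2-/- groups did not overlap, and 1 wild-type tumour library reached into the control range. Fga fell by 1.05 ± 0.19 (SE) on the log2 scale in wild-type mice (adjusted p = 0.000262) and by 0.91 ± 0.19 in Mdr2-/- mice (adjusted p = 0.00131).

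Fgb ranged from 2596 to 5610 CPM in wild-type controls (median 4218) and 1977 to 3313 in wild-type tumour livers (median 2378), and from 2981 to 3702 (median 3302) and 1675 to 2212 (median 1871) in the Mdr2-/- groups. Fgg ranged from 2712 to 5296 CPM (median 4585) and 1678 to 2453 (median 2148) in wild-type controls and tumour livers, and from 2222 to 3087 (median 2583) and 1466 to 1967 (median 1739) in the Mdr2-/- groups. For Fgg the control and tumour libraries were apart in both genotypes in CPM but overlapped in TPM, while for Fgb those of wild-type mice overlapped. Fgb fell by 0.77 ± 0.16 in wild-type and 0.79 ± 0.16 in Mdr2-/- mice, and Fgg by 1.03 ± 0.16 and 0.57 ± 0.16. The tumour effects of the 3 chains did not pass the test of a difference between genotypes (adjusted p = 0.742, 0.968 and 0.117 for Fga, Fgb and Fgg). The Fgb effect in wild-type mice was not called by limma on TPM (-0.45) or with a covariate from the sample titles, described further on (-0.49). In Mdr2-/- mice the nuclear RNA covariate ended the calls of all 3 chains (Fga -0.42, Fgb -0.50, Fgg -0.51), and total library size that of Fgg (-0.33).

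Among controls Fgg was lower in Mdr2-/- livers by 0.74 ± 0.16 (adjusted p = 0.00042) and Fga by 0.48 ± 0.19 (adjusted p = 0.0413), and Fgb was not called (-0.35 ± 0.16, adjusted p = 0.0692). By limma on log2(TPM + 1) neither was called, with Fgg at -0.25 and Fga turned to 0.03. The Fga call was also lost without any 1 of 8 libraries, with an adjusted p of up to 0.153 (without wild-type control 5). The TPM ratio of Fga to Fgb was 1.26 ± 0.089 (SD, n = 6) and 1.04 ± 0.115 in wild-type controls and tumour livers, and 1.16 ± 0.11 and 1.07 ± 0.032 in those of Mdr2-/- mice. That of Fgg to Fgb was 1.88 ± 0.12, 1.58 ± 0.16, 1.42 ± 0.14 and 1.66 ± 0.13 in the same order, and the lowest wild-type control (1.70) was above every Mdr2-/- control (up to 1.67).

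All 4 vitamin K-dependent clotting factors fell in wild-type tumour livers and 3 in Mdr2-/- tumour livers, where 11.5% and 17.0% of all genes were lower. F7, which starts clotting with tissue factor, fell by 0.78 ± 0.13 in wild-type and 0.79 ± 0.13 in Mdr2-/- mice, and F10, whose product converts prothrombin, by 0.61 ± 0.14 and 0.76 ± 0.14. F2, prothrombin itself, fell by 0.51 ± 0.14 and 0.62 ± 0.14. Its libraries lay between 1585 and 2253 CPM in wild-type controls, 1142 and 1632 in wild-type tumour livers, 1583 and 1993 in Mdr2-/- controls and 873 and 1575 in tumour livers of Mdr2-/- mice, overlapping in wild-type mice only. F9, the factor missing in haemophilia B, fell in wild-type mice (-0.69 ± 0.15), and its value in Mdr2-/- mice was -0.23 ± 0.15. F9 was also lower in Mdr2-/- than in wild-type controls (-0.58 ± 0.15), where limma on TPM gave -0.11, not called. F10 and F2 in wild-type mice were not called by limma on TPM (-0.31 and -0.21) or with the title covariate (-0.35 and -0.25).

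F5, the cofactor of factor X, fell by 0.85 ± 0.20 in wild-type and 0.65 ± 0.20 in Mdr2-/- mice. F13b, the carrier subunit of the enzyme that cross-links fibrin, fell in wild-type mice (-0.62 ± 0.17) and stood at -0.10 ± 0.17 in Mdr2-/- mice. With the title covariate its wild-type value was -0.48 and not called. The controls of F13b differed, with 432 to 765 CPM (median 605) in wild-type and 304 to 398 (median 355) in Mdr2-/- livers, a difference of -0.78 ± 0.17 (adjusted p = 0.000736). The 2 control groups of F13b did not overlap in CPM, but did in TPM (321 to 485 against 299 to 330).

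The contact system, which starts clotting on charged surfaces and releases bradykinin, held the largest falls in wild-type tumour livers and both kinds of difference between genotypes. F11, factor XI, ranged from 51.7 to 96.3 CPM in wild-type controls (median 64.9) and from 21.6 to 37.8 in wild-type tumour livers (median 25.5), a fall of 1.32 ± 0.21 (adjusted p = 3.75e-05). In Mdr2-/- mice F11 ranged from 38.2 to 87.0 in controls (median 61.2) and 20.8 to 42.6 in tumour livers (median 31.2), a fall of 1.02 ± 0.20. The wild-type groups did not overlap, and 1 Mdr2-/- control lay within the range of its tumour livers.

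Klkb1, plasma prekallikrein, ranged from 315 to 481 CPM in wild-type controls (median 334). All other groups were lower: 93.8 to 193.5 CPM in wild-type tumour livers (median 155), 162 to 191 in Mdr2-/- controls (median 178) and 94.9 to 223.5 in Mdr2-/- tumour livers (median 121). No wild-type control overlapped with any of the other groups, which overlapped with each other. The tumour effect was -1.27 ± 0.19 in wild-type (adjusted p = 1.97e-05) and -0.39 ± 0.18 in Mdr2-/- mice, with a difference of 0.87 ± 0.26 (adjusted p = 0.0175). The genotype effect in controls was -1.01 ± 0.19 (adjusted p = 0.00011). It shares the wild-type control libraries with the tumour effect in wild-type mice and with the difference. The difference of tumour effects of Klkb1 was no longer called with the nuclear RNA covariate described further on (0.745) or without wild-type tumour library 6 and Mdr2-/- tumour library 1, which stood apart (0.62).

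F12, factor XII, went the other way between genotypes. It ranged from 250 to 409 CPM in wild-type controls (median 349), 240 to 501 in wild-type tumour livers (median 264), 348 to 472.5 in Mdr2-/- controls (median 415) and 146 to 273 in tumour livers of Mdr2-/- mice (median 233). It fell in Mdr2-/- mice (-0.87 ± 0.18) and stood at -0.16 ± 0.18 in wild-type mice, with a difference of -0.71 ± 0.25 (adjusted p = 0.0399). That difference was not called without any 1 of 11 libraries (adjusted p up to 0.0844, without wild-type tumour library 6). Kng1, kininogen, the source of bradykinin, fell in both genotypes (-0.63 ± 0.17 and -0.89 ± 0.17). The fall of Kng1 in wild-type mice was not called by total library size (-0.34), limma on TPM (-0.33) or with the title covariate (-0.33), and that in Mdr2-/- mice not with the nuclear RNA covariate (-0.49). Reads of Kng1 and its near copy Kng2 may not be separated fully by the authors' counting.

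Of the anticoagulants, Serpinc1 and Proc fell in both genotypes and Pros1 in neither. Serpinc1, antithrombin, fell by 0.59 ± 0.14 in wild-type and 0.71 ± 0.14 in Mdr2-/- mice. With the title covariate its value in wild-type mice was -0.41 and not called. The TPM ratio of F2, whose product antithrombin blocks, to Serpinc1 was 1.16 ± 0.085 and 1.24 ± 0.076 in wild-type controls and tumour livers, and 1.23 ± 0.065 and 1.32 ± 0.10 in those of Mdr2-/- mice, with overlapping ranges from 1.01 to 1.49. The control groups of Serpinc1 lay apart in CPM (2917 to 3431 in wild-type, 2424 to 2760 in Mdr2-/- mice) and overlapped in TPM, and the difference was not called (-0.30 ± 0.14, adjusted p = 0.0796). Proc, protein C, lay between 294 and 393 CPM in wild-type controls (median 337), 199 and 316 in wild-type tumour livers (median 237), 278 and 383 in Mdr2-/- controls (median 322) and 151 and 216 in tumour livers of Mdr2-/- mice (median 194.5). It fell by 0.45 ± 0.13 in wild-type and 0.78 ± 0.13 in Mdr2-/- mice. The fall of Proc in wild-type mice was not called by total library size (-0.16), limma on TPM (-0.15), without the filter (-0.44) or with the title covariate (-0.32), and that in Mdr2-/- mice not with the nuclear RNA covariate (-0.45). Between tumour-bearing livers it was lower in Mdr2-/- mice by 0.40 ± 0.13 (adjusted p = 0.0467), a call that was lost without any 1 of 16 libraries (adjusted p up to 0.128, without Mdr2-/- tumour library 6).

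Pros1, the cofactor of protein C, was the coagulation gene that was higher in Mdr2-/- controls. It ranged from 55.5 to 88.8 CPM (median 64.2) in wild-type controls and 87.4 to 108 (median 103) in Mdr2-/- controls, a difference of 0.57 ± 0.12 (adjusted p = 0.000446). In tumour livers it ranged from 59.35 to 76.1 (median 67.2) and from 68.1 to 95.9 (median 91.05). The tumour effect was -0.01 ± 0.12 in wild-type and -0.24 ± 0.12 in Mdr2-/- mice. The control groups of Pros1 overlapped in CPM by 1 library each, and in TPM they did not overlap (22.3 to 32.8 against 51.3 to 63.5). The TPM ratio of Proc to Pros1 was 13.4 ± 3.1 and 8.41 ± 1.1 in wild-type and Mdr2-/- controls, and 9.70 ± 1.9 and 5.74 ± 0.28 in the tumour livers, each pair without overlap. Protein S is also made outside hepatocytes, and which cells gave these reads was not tested.

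Both fibrinolysis genes fell in both genotypes. Plg ranged from 1753 to 3244 CPM in wild-type controls (median 2434), 913 to 1982 in wild-type tumour livers (median 1167), 1663 to 2709 in Mdr2-/- controls (median 1839) and 748 to 1213 in tumour livers of Mdr2-/- mice (median 1007). It fell by 0.98 ± 0.19 in wild-type and 1.04 ± 0.19 in Mdr2-/- mice. Serpinf2, which encodes the plasmin inhibitor alpha2-antiplasmin, fell by 0.63 ± 0.17 and 0.88 ± 0.17. In wild-type mice Serpinf2 was not called by total library size (-0.36), limma on TPM (-0.31) or with the title covariate (-0.52). In Mdr2-/- mice neither was called with the nuclear RNA covariate (Plg -0.42, Serpinf2 -0.55). The TPM ratio of Plg to Serpinf2 was 2.78 ± 0.48 and 2.12 ± 0.395 in wild-type controls and tumour livers, and 2.28 ± 0.19 and 2.04 ± 0.23 in those of Mdr2-/- mice. Neither gene was called between genotypes (unadjusted p not under 0.05 in controls or tumour livers).

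In the lectin pathway, where mannose-binding lectins carry proteases that cut C4 and C2, 3 of 4 genes fell in Mdr2-/- and 1 of 4 in wild-type tumour livers, where 17.0% and 11.5% of all genes were lower. Masp2, the protease that cuts C4 and C2, fell by 0.95 ± 0.17 in Mdr2-/- mice and stood at -0.44 ± 0.17 in wild-type mice. The corresponding values of Masp1 were -0.66 ± 0.18, called, and -0.45 ± 0.18, not called. Masp2 shares exons with Tardbp on the opposite strand (GENCODE M21), and since the labels do not give strand marking, reads of the 2 genes may be mixed. Of the lectins, Mbl2 fell in Mdr2-/- mice (-0.36 ± 0.14, adjusted p = 0.0471) and Mbl1 in wild-type mice (-0.46 ± 0.17, adjusted p = 0.0409). Both calls were narrow. That of Mbl2 was lost without any 1 of 11 libraries (adjusted p up to 0.111, without Mdr2-/- tumour library 6) and that of Mbl1 without any 1 of 7 (up to 0.101, without wild-type control 3). With the title covariate the fall of Mbl1 was -0.22 and not called. Mbl1 was also lower in Mdr2-/- than in wild-type controls (-0.61 ± 0.17), where limma on TPM gave -0.17, not called.

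Of the convertase components, C3 fell in both genotypes. It ranged from 9529 to 17622 CPM in wild-type controls (median 13190) and 5114 to 12630 in wild-type tumour livers (median 6560), and from 12674 to 20874 in Mdr2-/- controls (median 14472) and 6037 to 9184 in tumour livers of Mdr2-/- mice (median 8530). The Mdr2-/- groups lay apart, and 1 wild-type tumour library reached into the control range. C3 fell by 0.88 ± 0.20 in wild-type (adjusted p = 0.00196) and 0.999 ± 0.20 in Mdr2-/- mice (adjusted p = 0.000958), and was not called between genotypes in controls (0.25 ± 0.20). With the nuclear RNA covariate the value of C3 in Mdr2-/- mice was -0.34 and not called.

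C2 and Cfb, the proteases of the classical and alternative convertases, neighbour each other in the genome and were each high in Mdr2-/- controls. C2 ranged from 37.4 to 54.8 CPM in wild-type controls (median 46.9), 33.1 to 58.2 in wild-type tumour livers (median 36.8), 66.8 to 91.1 in Mdr2-/- controls (median 76.0) and 26.7 to 48.9 in Mdr2-/- tumour livers (median 37.9). Every Mdr2-/- control was above every library of the other 3 groups. C2 was higher in Mdr2-/- than wild-type controls by 0.76 ± 0.15 (adjusted p = 0.000292) and fell with tumour in Mdr2-/- mice by 1.05 ± 0.15 (adjusted p = 3.91e-05), 2 comparisons that share the Mdr2-/- control libraries. In wild-type mice the tumour effect of C2 was -0.18 ± 0.15, and the difference of tumour effects was -0.87 ± 0.22 (adjusted p = 0.00604).

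Cfb ranged from 87.6 to 141 CPM in wild-type controls (median 125.5), 73.65 to 131 in wild-type tumour livers (median 84.9), 154 to 218 in Mdr2-/- controls (median 177) and 56.8 to 118 in Mdr2-/- tumour livers (median 87.7). Here too each Mdr2-/- control was above all libraries of the other groups. Cfb was higher in Mdr2-/- controls by 0.58 ± 0.17 (adjusted p = 0.00626) and fell with tumour in Mdr2-/- mice by 1.02 ± 0.17 (adjusted p = 0.000155), again with shared controls, while its difference of tumour effects was not called (-0.63 ± 0.24, adjusted p = 0.0532). C4b, the substrate of the lectin and classical proteases, was not called in any comparison (-0.18 ± 0.16 in Mdr2-/- and -0.24 ± 0.16 in wild-type tumours), and its reads may be mixed with those of its near copy C4a. The TPM ratio of C3 to C4b was 9.63 ± 0.90 in wild-type and 12.5 ± 1.4 in Mdr2-/- controls, and 6.08 ± 0.745 and 7.09 ± 1.1 in the tumour livers of the same genotypes.

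The terminal pathway did not move as 1 block. C6, which binds C5b and starts the pore, ranged from 21.7 to 30.9 CPM in wild-type controls (median 24.98) and from 211 to 411 in Mdr2-/- controls (median 229). It ranged from 30.4 to 104 in wild-type tumour livers (median 45.1) and from 80.0 to 225 in Mdr2-/- tumour livers (median 143). The control groups were far apart, at 25.4 ± 3.275 and 256 ± 76.2 CPM (SD, n = 6), and 1 Mdr2-/- control at 411 stood above the other 5.

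The genotype effect of C6 in controls was 3.33 ± 0.27 on the log2 scale, 10.1-fold (adjusted p = 1.0e-09), the largest of any member in any comparison. In tumour-bearing livers it was 1.42 ± 0.25 (adjusted p = 0.000643), where the ranges overlapped. C6 was the 1 member that rose with tumour in wild-type mice (1.09 ± 0.25, adjusted p = 0.00211), and it fell in Mdr2-/- mice (-0.82 ± 0.25, adjusted p = 0.0152). The difference of these effects was -1.91 ± 0.35 (adjusted p = 0.000692). The tumour effects, their difference and the genotype effect in controls share control libraries. Without the Mdr2-/- control at 411 CPM (replicate 3) the fall was -0.63, with an adjusted p of 0.05004, and the fall was not called with total library size (-0.58) or the nuclear RNA covariate (-0.245). The rise in wild-type mice, the genotype effects and the difference were called in every alternative run. Sex and age of the animals are not given in the labels, and their part in these values was not tested.

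C8 is built of 3 chains from 3 genes, and these parted. C8a ranged from 145 to 233 CPM in wild-type controls (median 204) and from 383 to 809 in Mdr2-/- controls (median 476), without overlap, a difference of 1.49 ± 0.20 (adjusted p = 2.64e-06). C8g, the chain related to lipocalins, went the opposite way, from 377.5 to 647 CPM (median 540) down to 174 to 349 (median 252), also without overlap, a difference of -1.004 ± 0.22 (adjusted p = 0.000643). C8b was not called between these groups (0.20 ± 0.21), with 160 to 274 and 190 to 329 CPM.

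Per length, C8a was 0.159 ± 0.051 of C8g in wild-type and 0.878 ± 0.26 in Mdr2-/- controls, and the ranges of this TPM ratio (0.092 to 0.235 and 0.536 to 1.18) lay apart. It was 0.327 ± 0.22 in wild-type and 0.576 ± 0.17 in Mdr2-/- tumour livers. The ratio of C8b to C8g was 0.251 ± 0.055 in wild-type and 0.574 ± 0.082 in Mdr2-/- controls, which lay apart as well. C8a, 152 to 338 CPM in wild-type tumour livers (median 212) and 306 to 413 in Mdr2-/- tumour livers (median 337), fell with tumour in Mdr2-/- mice (-0.62 ± 0.20, adjusted p = 0.0195) and stood at 0.31 ± 0.20 in wild-type mice. The difference of these effects was -0.94 ± 0.28 (adjusted p = 0.0178). It shares the control libraries with the genotype effect of C8a in controls. Without Mdr2-/- control replicate 3 the fall of C8a was -0.47 and not called (adjusted p = 0.0634), and without the 2 tumour libraries that stood apart the difference was -0.80 and not called. C8b fell in wild-type mice (-0.63 ± 0.21, adjusted p = 0.0285), not called without any 1 of 4 libraries (adjusted p up to 0.0832, without wild-type tumour library 3). With the title covariate the fall of C8b was -0.12 and not called.

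**Figure D4:**
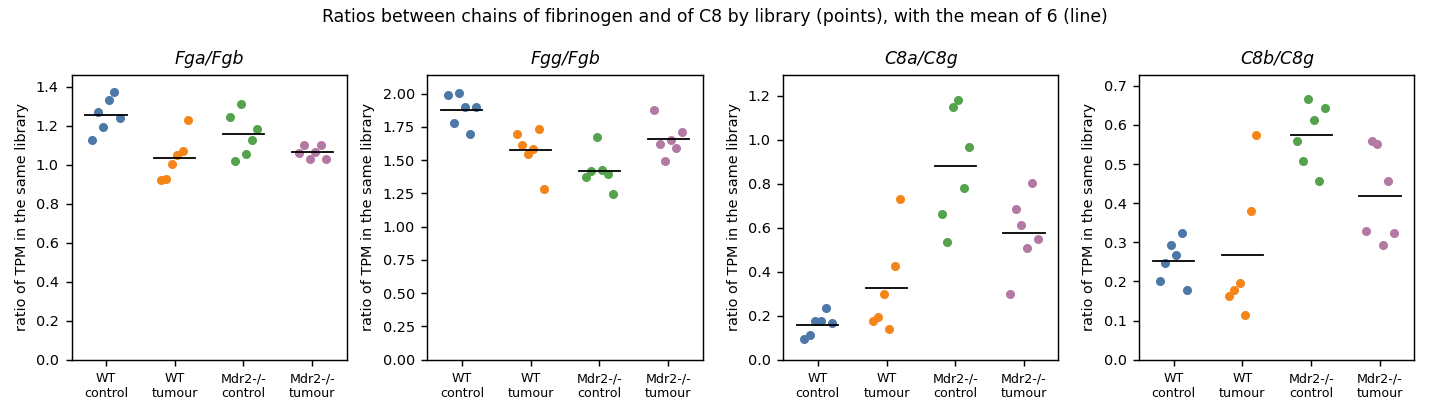
Ratios of TPM within a library (y axis from 0, points) between fibrinogen chains and between C8 chains in the 4 groups, with the mean of 6 as a line. The ratios of Fga and of Fgg to Fgb lie between 0.922 and 2.00, and C8a to C8g goes from at most 0.235 in wild-type controls to at least 0.536 in Mdr2-/- controls.

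C9, which forms the wall of the pore, ranged from 465 to 786 CPM in wild-type controls (median 564), 576 to 985 in wild-type tumour livers (median 819), 670 to 1017 in Mdr2-/- controls (median 917) and 661 to 1234 in tumour livers of Mdr2-/- mice (median 967). It was higher in Mdr2-/- controls by 0.56 ± 0.17 (adjusted p = 0.00665), with overlap in CPM and none in TPM (312 to 464 against 682 to 885). With tumour C9 stood at 0.41 in wild-type and 0.13 in Mdr2-/- mice, not called. Hc, complement C5, fell in both genotypes (-0.48 ± 0.13 and -0.42 ± 0.13) and was lower in Mdr2-/- controls (-0.39 ± 0.13). The fall in wild-type mice was not called by total library size (-0.19) or limma on log2(TPM + 1) (-0.18). That in Mdr2-/- mice was not called by total library size (-0.18), upper-quartile factors (-0.29), limma (-0.30) or with the nuclear RNA covariate (-0.21), and had an adjusted p of 0.0501 without Mdr2-/- control replicate 6. By limma the genotype value of Hc in controls turned to 0.06. Cfi, the protease that inactivates C3b and C4b, was not called in any comparison (-0.10 ± 0.13 in Mdr2-/- and -0.19 ± 0.13 in wild-type tumours).

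Other genes of these pathways, 57 tested from a list of 60, were made up of further liver-secreted factors and of genes of vessels and immune cells. Of 10 further genes of hepatic coagulation and its maturation, 7 fell in Mdr2-/- and 6 in wild-type tumours. Of all genes 17.0% and 11.5% fell. Hrg, a plasma protein that binds heparin and plasminogen, fell by 1.23 ± 0.20 in Mdr2-/- and 0.81 ± 0.20 in wild-type mice. Of 7 genes of fibrinolysis in tissue, 3 rose in Mdr2-/- and 7 in wild-type tumours, where 17.9% and 16.9% of all genes rose. Anxa2, a plasminogen receptor, rose by 2.74 ± 0.26 in wild-type mice, and Serpine2, an inhibitor of thrombin and plasminogen activators, by 1.20 ± 0.33 in Mdr2-/- mice. The tumour effect of Anxa2 differed between genotypes by -2.08 ± 0.35.

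Of 11 genes of coagulation in vessels, platelets and tissue, 4 rose in each genotype. Of all genes 17.9% rose in Mdr2-/- and 16.9% in wild-type tumours. F2rl1, a protease-activated receptor, rose by 4.01 ± 0.44 in wild-type (mean 0.382 to 5.93 CPM) and 1.70 ± 0.36 in Mdr2-/- mice, and F3, tissue factor, by 1.25 ± 0.26 in Mdr2-/- mice. Complement receptors of leukocytes rose in wild-type tumours (6 of 8, against 16.9% of all genes). They fell in Mdr2-/- tumours (5 of 8, against 17.0%). All 8 were higher in Mdr2-/- than in wild-type controls, where 26.2% of all genes were higher. These comparisons share control libraries. Itgax, a chain of complement receptor 4, rose by 2.12 ± 0.32 in wild-type tumours and was 2.84 ± 0.32 higher in Mdr2-/- controls, and its tumour effects differed by -2.10 ± 0.43. Among controls Anxa2 was also higher in Mdr2-/- mice (2.79 ± 0.26), as was F2rl1 (2.70 ± 0.44). Between tumour-bearing livers Colec10, a liver collectin, was lower in Mdr2-/- mice (-2.43 ± 0.38), and C7, the pore component that follows C6, was higher (1.76 ± 0.29), as were Plat, tissue plasminogen activator (1.498 ± 0.29), and Cr2, a receptor of C3 fragments (1.23 ± 0.25). C7 was also 2.00 ± 0.30 higher in Mdr2-/- controls, at a mean of 5.57 against 1.38 CPM. Over all 57 genes 26 were called in Mdr2-/- tumours (8 higher, 18 lower) and 31 in wild-type tumours (21 higher, 10 lower). In Mdr2-/- tumours that is 14.0% higher and 31.6% lower, against 17.9% and 17.0% of all genes, and in wild-type tumours 36.8% and 17.5%, against 16.9% and 11.5%.

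Markers of cells and RNA moved with the groups. The summed level of 8 cholangiocyte markers was 114 to 203 CPM in wild-type controls, 228 to 1458 in wild-type tumour livers, 338 to 575 in Mdr2-/- controls and 1249 to 4188 in tumour livers of Mdr2-/- mice. That of 8 macrophage markers was 378 to 530, 477 to 801, 604 to 1113 and 645 to 1392 CPM in the same order, and that of 6 stellate cell and fibroblast markers 304 to 420, 477 to 933, 562 to 989 and 744 to 1012. That of 6 endothelial markers was 379 to 456, 393 to 540, 332 to 409 and 259 to 377, and that of 4 platelet and megakaryocyte markers 4.75 to 48.9, 4.75 to 26.1, 11.6 to 25.8 and 6.19 to 36.2. No marker was at 0 in a whole group. Of 10 hepatocyte markers 6 fell in Mdr2-/- and 5 in wild-type tumours, among them Alb, albumin, with -1.10 ± 0.17 and -0.78 ± 0.17. Of all genes 17.0% and 11.5% fell. The median of the 10 markers was -0.67 in Mdr2-/- mice, with the highest at 0.06, and -0.26 in wild-type mice, with the highest at 0.13, beside the members' medians of -0.66 and -0.52. The part of these changes in cell makeup in the members' values was not tested.

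The summed share of 7 nuclear non-coding RNAs was 4.60 to 7.95% of counts in Mdr2-/- tumour livers and 1.74 to 4.29% in Mdr2-/- controls, without overlap. What sets this share in a library, whether tissue, animal or library preparation, was not tested. With this share as a covariate 5 of the 23 falls in Mdr2-/- mice were called, and the members' median was -0.48, against -0.66 without it. Of the falls not named with it so far, F2 stood at -0.59, F5 at -0.17, F11 at -0.64, F12 at -0.27, Masp1 at -0.05, Masp2 at -0.51, Mbl2 at -0.53 and C8a at -0.48. The share was 2.30 to 6.51% in wild-type tumour livers and 2.91 to 5.42% in wild-type controls, and there the covariate left 21 members lower and 1 higher. The numbers in the sample titles, whose meaning the labels do not give, were below 2000 in 5 of 6 wild-type controls and 0 of 6 wild-type tumour livers. With that range as a covariate 10 members were lower and 2 higher in wild-type tumours, and what the numbers stand for was not tested. Shares of all genes called with either covariate are not reported here, so these counts alone do not describe the members.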

How the data were processed

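Per the labels' protocols, total RNA of 24 mouse livers (4 groups of 6) went through rRNA depletion, with a kit whose name says bacteria, and paired-end sequencing. The authors deposited raw counts per gene and TPM values, which are scaled for gene length and to 1 total. The build mm39 and DESeq2 are named in the submitters' processing notes, while aligner, counter and annotation were not given in the sources used here. Strand marking is not stated, so reads of overlapping antisense genes may be mixed (F5, Serpinc1, Hc, Fgg, Masp2, C2 and Plg overlap one in GENCODE M21).

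The test was the quasi-likelihood F test of edgeR 4.0.16 (R 4.3.3; filterByExpr on groups, minimum count 10; TMM; robust glmQLFit), with 5 contrasts in 1 model of all 24 libraries. All p-values were adjusted over the 17216 genes tested by the Benjamini-Hochberg method, and an adjusted p under 0.05 was a call. The edgeR fit was tested on simulated data. A fold change ± value is a standard error, computed from the F statistic. The biological coefficient of variation was 0.272. All 60 replicate pairs differed beyond sampling noise (chi-square per gene 29.36 to 277.5).

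Alternatives were other scalings, no filter (34237 genes), a stricter filter (13055 genes), DESeq2 1.42.0, limma 3.58.1 on log2(TPM + 1) and log2(TPM + 0.1), 12 libraries per comparison, 2 covariates, 2 libraries left out and each library left out. Ratios and figures were made in Python 3.11.15. Members, gene lists and alternatives were chosen with earlier results of these data known. Library ranges follow a rule (the 3 largest called members per comparison, those called against the majority, the fibrinogen chains and C3), and those of other members were added after their values were seen. Of other pathway genes, up to 4 called ones with the largest change per comparison were to be named. Some genes, also among those with the largest change, and 1 planned promoter motif are not reported here.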

Additional observations from a re-analysis of the deposited data

Results flagged for a closer look

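In 10 of 132 groups of 6 libraries the highest or lowest library of a member stood apart from the others by Dixon's criterion. This is the gap to the next library over the whole range, at the 95% level, which chance gives in about 1 of 20 independent groups. The groups of different members share the same libraries and are not independent. In all 10 the library that stood apart was the highest. Library 6 of CCA.Wild-type held 6 of these: F12 at 501 CPM (next highest 305), Fga at 3226 (2184), Plg at 1982 (1278), Masp1 at 157 (85.2), C3 at 12630 (7307) and C4b at 1951 (1329). This library had the lowest share of nuclear non-coding RNA of its group, 2.30%, where the other 5 held 5.51 to 6.51%, and its part in these values was not tested. Library 1 of CCA.Mdr2-/- was apart in F13b at 518 CPM (317) and C8g at 440 (265). Klkb1 reached 481 CPM in 1 wild-type control (339), and C6 411 CPM in 1 Mdr2-/- control (236).

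The tumour effects differed between genotypes by the edgeR interaction test for 5 members. The difference, Mdr2-/- minus wild-type, was -1.91 ± 0.35 (SE) for C6, -0.94 ± 0.28 for C8a, -0.87 ± 0.22 for C2, -0.71 ± 0.25 for F12 and 0.87 ± 0.26 for Klkb1. Of these, C6 and C2 kept their call in every alternative run.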

How the results depend on the processing

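Calls kept by every alternative were 5 of 23 for tumour in Mdr2-/- mice (F7, F10, Serpinc1, C2 and Cfb), 10 of 21 for tumour in wild-type mice, 2 of 5 for the difference, 9 of 14 for genotype in controls and 1 of 2 (C6) for genotype in tumour livers. With the nuclear RNA covariate 5 members were called for tumour in Mdr2-/- mice and 3 for the difference, and without the 2 libraries that stood apart 2 were called for the difference. For tumour in wild-type mice 13 were called by limma with either TPM pseudocount and 12 with the title covariate. For genotype in tumour livers the 2 calls became 1 with no filter or only 12 libraries, 5 by total library size, by limma with either pseudocount or with the nuclear RNA covariate, 7 by DESeq2 or without the 2 libraries that stood apart, and 10 with the title covariate. Leaving out 1 library gave 1 to 6 there, with 6 without CCA.Mdr2-/- library 1, and 20 to 24, 19 to 24, 4 to 6 and 13 to 16 in the other comparisons, in the order above. By limma with pseudocounts of 1 and 0.1, the genotype effects in controls reversed for Fga (0.0307 and 0.0307) and Hc (0.0630 and 0.0647), and neither was called. The cause of these changes was not tested, and shares of all genes called under these settings are not reported here. Using only 12 libraries gives no value for the difference. No paired analysis was possible because the labels carry no replicate numbers. Depth was not the limit for members, whose lowest count was 381.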

Other observations

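Further gene lists, chosen with earlier results of these data known, were read off the same edgeR fit and hold no member. Of 8 acute phase proteins, 6 were higher and 1 lower in Mdr2-/- than in wild-type controls, where 26.2% of all genes were higher and 24.3% lower. With tumour, 4 of the 8 rose and 2 fell in wild-type mice, while 4 fell in Mdr2-/- mice. Among all genes 16.9% rose and 11.5% fell in wild-type mice, and 17.0% fell in Mdr2-/- mice. Of 8 liver transcription and signalling factors, 4 fell with tumour in Mdr2-/- mice, among them Hnf4a (-1.12 ± 0.25), and 1 fell in wild-type mice, Foxa2 (-1.07). Whether these changes bear on the members was not tested.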
